A study of Caenorhabditis elegans with 2 samples.

Results

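The genes mes-2, mes-3, mes-6, mes-4 and mrg-1 of the nematode Caenorhabditis elegans were examined for binding of the forkhead transcription factor UNC-130 at their promoters. They were taken by name as the genes of the Polycomb repressive complex PRC2, MES-4 and MRG-1, and are 5 of 19973 protein-coding genes on the nuclear chromosomes. All 5 lie on autosomes. The data were ChIP-seq peak lists of 1 group with 2 biological replicates. Both are whole L4 hermaphrodites of strain AGK541, taken 48 h after synchronization as starved L1 larvae. Every animal carried a transgene on chromosome II (armSi1) that joins the mex-5 promoter, UNC-130, GFP and the 3' UTR of tbb-2 and holds cb-unc-119(+), with unc-119(ed3) on chromosome III and niDf199 on chromosome IV. The labels call the tag GFP, eGFP or GFP-FLAG, and 1 label field names the antibody by UNC-130 where the description names GFP. The lists describe a tagged protein made from a promoter active in the germline, in chromatin of the whole animal, and no untagged or untreated group was analysed here.

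PRC2 places methyl groups on lysine 27 of histone H3, a repressive mark. In the worm it consists of MES-2, the catalytic subunit related to Enhancer of zeste, MES-6, the WD repeat subunit related to EED, and MES-3. MES-4 places methyl groups on lysine 36 of histone H3 in germline chromatin, and MRG-1 is a chromodomain protein of the MRG15 family that reads this mark. The mes genes are named for maternal-effect sterility, in which the offspring of mutant mothers lack a working germline. All 5 genes are known for keeping the X chromosome silent in the germline, where H3K36 methylation by MES-4 covers the autosomes and H3K27 methylation by PRC2 marks the X. The lists give where peaks of UNC-130::GFP were called and say nothing on expression or silencing of the X.

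Peaks of the authors' list cut by the irreproducible discovery rate (IDR) lay in the promoter windows of mrg-1, mes-6 and mes-2. None lay in those of mes-3 or mes-4. The list holds the 1667 peaks of highest signal called on the reads of both replicates together. A place in it does not show that a peak ranked as high in each replicate alone. The window began 1000 bp before the annotated 5' end and stopped 200 bp past it, and a gene counted when the summit of a peak, its highest point, fell inside. The DNA at the 3 summits is shown because these are the places where UNC-130::GFP was called at the group. Each line gives 30 bases of the WBcel235 assembly (ce11) from RefSeq, 5′ to 3′ on the strand of the gene, and the 5 capitals mark the summit base of the IDR peak with its flanking bases.
mrg-1, chrIII:12874860-12874889, minus strand: cggcgctattgcATTTGcttagaaaaccgc
mes-6, chrIV:8511269-8511298, plus strand: gaacgagaaatgcGCGCGagcggccatatt
mes-2, chrII:14383845-14383874, plus strand: aatagggcgcgatTGCACgcaacacttgca

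No copy of the forkhead core word TGTTTAC lay within 150 bp of any of these 3 summits. Words were searched on both strands in 300 bp windows centred on the summit. TGTTTAC was present in 5.1% of 1648 nuclear IDR summit windows and in 4.77% of 19973 coding promoters of the same length, which ran from 250 bp upstream to 50 bp downstream, so most windows of either kind lacked it. The E2F type word GCGGGAA, present at 7.34% of IDR summits and 3.22% of promoters, was also not found at the 3 summits, nor was the word CTGTTTCA that precedes many 21U-RNA loci (1.09% and 2.32%). The LIN-54 type word TTTGAA lay in all 3 windows, 15 bp upstream of the mes-6 summit, 49 bp upstream of the mes-2 summit, and 30 bp downstream and 139 bp downstream of the mrg-1 summit. This word was common everywhere, at 59.3% of IDR summits and 62.5% of promoters. GAGAGA lay once near mes-2, 57 bp past the summit on the opposite strand, in a window type where 26.5% of IDR summits held it. It is shown within its 30 bases on the strand of mes-2, where it reads as its reverse complement in capitals.
mes-2, chrII:14383902-14383931, plus strand: ttttcgatttatTCTCTCgtctttttcgtc

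The 3 summit windows had GC contents of 33.7% at mrg-1, 34% at mes-6 and 37.7% at mes-2. The median over nuclear IDR summits was 37.3%, with quartiles of 33.3% and 42.7%. The promoters of the genes without an IDR summit had 39.7% at mes-3 and 35.3% at mes-4, and neither held TGTTTAC. Over all coding promoters the median was 34.3% with quartiles of 31.3% and 38%, so mes-3 was above the upper quartile and mes-4 within them. Of the 6 words searched, TTTGAA was in the promoters of mrg-1, mes-6 and mes-2, GAGAGA in those of mes-2 and mes-3, and TATAAA in that of mes-4. The promoter windows of mrg-1, mes-6 and mes-2 overlap their summit windows, and the copies listed above lie in both. Over all coding promoters the shares were 62.5% for TTTGAA, 21.8% for GAGAGA and 37.9% for TATAAA.

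With 3 of 5 genes, the count stood beside 7.85% of all coding genes with an IDR summit in the same window (1568 of 19973), or 8.92% of autosomal coding genes and 1.1% of those on the X. The genes were named with earlier results of these data known, so the count is a description and carries no test. In the pooled relaxed list, called by the authors on the reads of both replicates together and holding background as well as peaks by its label, 4 of 5 had an entry, against 30.4% of coding genes. In the relaxed lists of replicate 1 and replicate 2 the same 3 genes had one, against 31% and 31.7% of coding genes. All 3 lists are used below with the signal, the authors' own value for a peak whose scale no source used here gives, and with the rank by signal within the list, 1 being the highest. Read depth is unknown, since the lists hold no read counts.

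**Figure D1:**
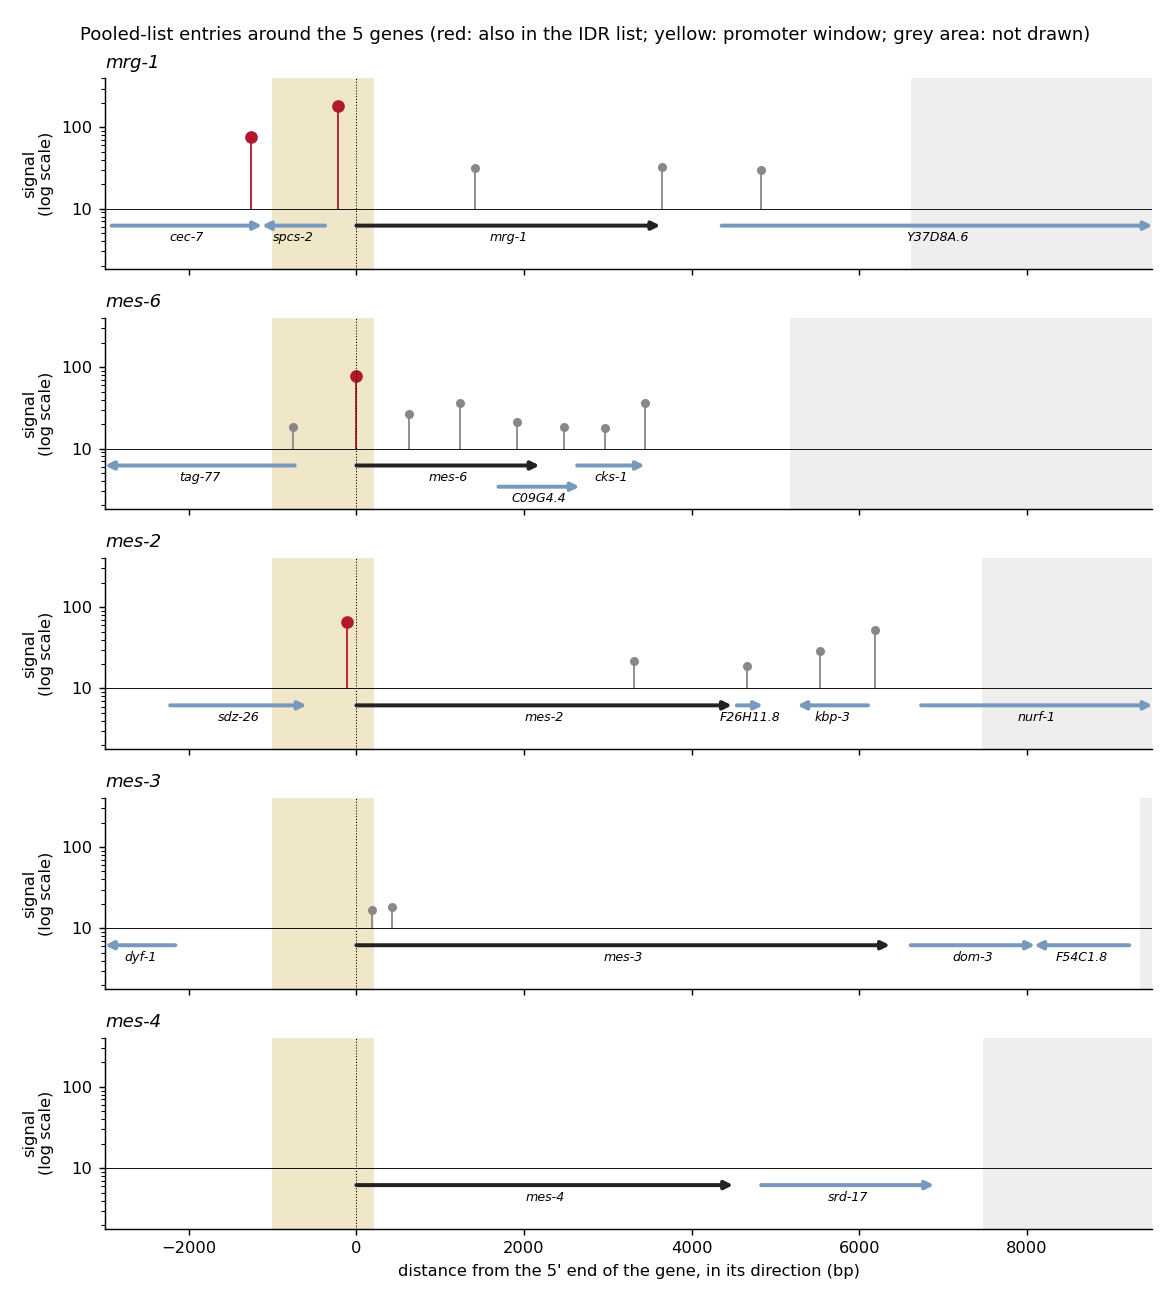
Each panel shows 1 gene (black arrow) and its coding neighbours (blue arrows, cut at the panel edge), with distance in bp from its 5' end on the x axis and the signal of pooled-list entries on a log y axis, drawn from 3000 bp before to 3000 bp past the gene. Red entries are also in the IDR list, and red summits stand in the window of mrg-1, mes-6 and mes-2, while mes-3 has grey entries alone and mes-4 has none.

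mrg-1 had the strongest peak of the 5 genes in both replicates, and in the pooled and IDR lists, which come from the same 2 replicates. The gene lies on chromosome III, 12871029 to 12874656 on the minus strand (WBGene00003406). Its IDR peak ran from 12874820 to 12874987 with a signal of 183.8, rank 117 of 1667, and the summit lay in intergenic DNA 219 bp upstream of the 5' end. Replicate 1 gave a signal of 75.2 (rank 115 of 19058) with the summit 253 bp upstream, and replicate 2 gave 109.8 (rank 128 of 18463) with the summit 219 bp upstream. Both replicates placed the peak near the very top of their lists, and their summits were 34 bp apart. As a share of the list, the rank was 0.646% ± 0.0635 (SD, n = 2). Among the 1568 coding genes with an IDR summit, mrg-1 took place 144 by its strongest signal, above 90.8% of them, where the median gene had a signal of 94.9.

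The mrg-1 summit lies between divergent genes and cannot be given to mrg-1 alone. The next gene upstream is spcs-2, which encodes a subunit of the signal peptidase complex and is read away from mrg-1, with 374 bp between the genes. The same summit was 156 bp upstream of spcs-2 in the IDR list, nearer than to mrg-1, and 122 bp upstream in replicate 1. Such sharing was frequent, since 479 of 1103 IDR summits in a coding window (43.4%) lay in the windows of several coding genes. The mrg-1 peak was 168 bp wide, while 85.8% of IDR peaks had the width of 420 bp and 13.5% were narrower.

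A second IDR peak lay just beyond the mrg-1 window, from 12875702 to 12876121, with a signal of 76.2 (rank 1072) and its summit 1256 bp upstream of mrg-1. That summit was in a coding exon of cec-7, a gene for a chromodomain protein that ends against spcs-2, and in the promoter window of no coding gene. Replicate 2 had it at rank 952, 1219 bp upstream, and replicate 1 had a pair of entries there, at 1089 bp (rank 1242) and 1302 bp upstream (rank 2808). Within mrg-1 itself the pooled list held 1 weak entry in an intron, 1421 bp past the 5' end with a signal of 31.9.

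mes-6 had an IDR peak that sat directly on its 5' end. The gene lies on chromosome IV, 8511284 to 8513469 on the plus strand (WBGene00003224), and its peak ran from 8511074 to 8511493 with a signal of 77.8, rank 1032 of 1667. The IDR summit fell on the first annotated base, offset 0, in the 5' UTR of 153 bp. Replicate 1 gave a signal of 24.6 (rank 1717 of 19058) with the summit 31 bp inside the gene, and replicate 2 gave 51.7 (rank 893 of 18463) with the summit 1 bp upstream. The summits were 32 bp apart, replicate 2 ranked the peak higher, and rank as a share of the list was 6.92% ± 2.95 (SD, n = 2).

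Few genes with an IDR summit had it at or past the 5' end, where that of mes-6 lay. Of 1568 coding genes with an IDR summit, 60 (3.83%) had their strongest summit at or past the 5' end. Another 364 (23.2%) had it nearer than 150 bp upstream. By its replicate 2 summit, 1 bp upstream, mes-6 would belong with these 364. The median was 248 bp upstream with quartiles of 416 and 141 bp upstream. Annotated 5' ends of worm genes are often sites where a spliced leader is joined, and transcription then starts further upstream. The annotated 5' UTR was 3 bp for mes-2, 2 bp for mrg-1, 5 to 9 bp for mes-3 and 32 bp for mes-4, against a median of 33 bp over 15453 coding genes with a 5' UTR, and mes-6 was the member with a long one. Where transcription starts was not measured here.

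The mes-6 peak also fell in the window of tag-77, the gene read in the opposite direction 735 bp away, whose 5' end was 736 bp from the summit. A weak second entry of the pooled list lay within the mes-6 window, 761 bp upstream and just inside the coding exon at the start of tag-77, with a signal of 18.5 (rank 13131 of 16959). Downstream, pooled entries followed each other through mes-6, C09G4.4 and cks-1, a gene for a subunit of cyclin-dependent kinases, at 627, 1239, 1917, 2473, 2966 and 3439 bp from the mes-6 5' end. Their signals were between 18.1 and 36.6, all under the lowest signal of the IDR list, 58.8. Entries of both replicates matched the one at 1239 bp, at 1220 bp in replicate 1 (rank 8773) and 1239 bp in replicate 2 (rank 3514). The one at 2473 bp was also matched in both, at 2442 bp in replicate 1 (rank 10692) and 2472 bp in replicate 2 (rank 13439). Near the one at 3439 bp, replicate 2 had an entry at 3442 bp (rank 2014) and replicate 1 had one at 3289 bp (rank 6026).

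mes-2 had an IDR peak in the lower part of the list. The gene lies on chromosome II, 14383973 to 14388454 on the plus strand (WBGene00003220), and the peak ran from 14383650 to 14384069 with a signal of 66.1, rank 1405 of 1667. Its summit lay in intergenic DNA 113 bp upstream of the 5' end. Replicate 1 gave a signal of 25.7 (rank 1572 of 19058) with the summit 158 bp upstream, and replicate 2 gave 40.8 (rank 1376 of 18463) with the summit 115 bp upstream. The values of the replicates were close, with rank as a share of the list at 7.85% ± 0.563 (SD, n = 2) and summits 43 bp apart. By strongest signal mes-2 took place 1362 among the 1568 genes with an IDR summit.

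The mes-2 peak was the only one of the 3 that lay in the promoter window of a single gene. The upstream neighbour, sdz-26, is read in the same direction and ends 593 bp before mes-2, and it had no entry in its own window in any of the 4 lists. The nearest strong pooled entry on the other side was 6192 bp past the 5' end, beyond the 3' end of mes-2, 87 bp upstream of the kinetochore gene kbp-3 and also in the window of nurf-1. With a signal of 52.4 (rank 2010 of 16959) it was below the lowest IDR peak, although replicate 1 placed it higher (rank 1312) than the mes-2 peak and replicate 2 lower (rank 2880).

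**Figure D2:**
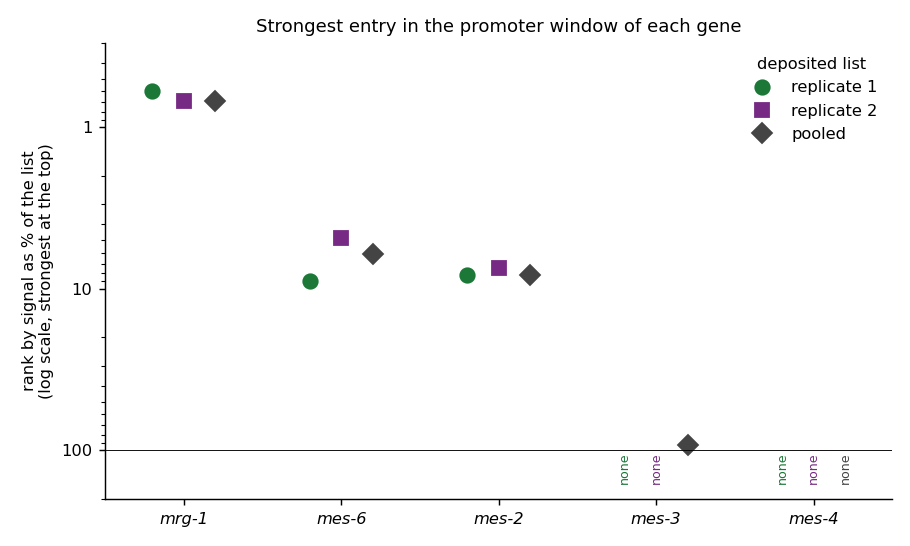
The y axis gives the rank of the strongest entry in the promoter window as a percentage of the list, on a log scale with the strongest at the top, for each gene on the x axis and for the lists of replicate 1, replicate 2 and the pooled reads (symbols). mrg-1 lies above the 1% line in all 3 lists, mes-6 and mes-2 lie between 4.83% and 9.01%, mes-3 has a pooled entry near the bottom and mes-4 has none.

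The order of mes-6 and mes-2 was not fixed by the replicates. Replicate 1 ranked mes-2 above mes-6 (1572 and 1717) and replicate 2 ranked mes-6 above mes-2 (893 and 1376), so their means differed by less than the spread of mes-6. mrg-1 was ahead of both in each replicate. The highest peaks of each replicate alone were also taken, as many as the IDR list holds (1667). Replicate 1 kept mrg-1 and mes-2 (2 of 5 genes, beside 7.35% of coding genes) and lost mes-6. Replicate 2 kept all 3 (beside 7.88%). In replicate 1 both genes lay near this cut, mes-2 just inside at rank 1572 and mes-6 just outside at 1717 of 19058. Of the 1568 coding genes with an IDR summit, 238 (15.2%) were like mes-6 in having one of the highest peaks in replicate 2 and not in replicate 1, and 77.4% had one in both.

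mes-3, the third subunit of PRC2, had no IDR peak and no entry in its window in either replicate. The gene lies on chromosome I, 4996835 to 5003202 on the plus strand (WBGene00003221). The pooled list held 1 entry in the window, from 4996806 to 4997225, with its summit in the first part of the gene, 181 bp past the 5' end in an intron, and a signal of 16.9. That is rank 15763 of 16959, with a deposited −log10 q-value of 0.034, and 77.7% of the pooled entries had a q-value above 0.05. A second pooled entry lay 419 bp past the 5' end (signal 18.1), and replicate 2 alone had one at 363 bp (signal 14.1, rank 9515), both outside the window. The pattern of a pooled entry with none in either replicate held for 173 coding genes (0.866% of all 19973), out of 6074 with a pooled entry. For replicate 2 it depends on where the window stops, 200 bp past the 5' end.

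In replicate 1 and in the IDR list no summit lay close to mes-3. The nearest summit of replicate 1 was 9536 bp upstream, at paf-1, and 8.93% of coding genes were at least as far from a summit of that list. The nearest IDR summit was 29190 bp upstream, at app-1, near the median distance of 24972 bp over all coding genes. The upstream gene dyf-1, which acts in the transport along cilia, and the downstream gene dom-3 had no entry in their windows in any list.

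mes-4, the gene for the H3K36 methyltransferase, had no entry in its window in any of the 4 lists. This held for 58% of coding genes (11578 of 19973). The gene lies on chromosome V, 13433050 to 13437545 on the minus strand (WBGene00003222), with 4415 bp to its upstream neighbour, the collagen gene col-162. One entry in all, from replicate 2, lay within 3000 bp of the gene, 3488 bp past the 5' end inside it, with a signal of 10.5 (rank 17597 of 18463). The nearest pooled summit was 6730 bp upstream, and 23.2% of coding genes were at least as far from one, against a median of 2154 bp. The nearest IDR summit was 28265 bp away. Neither col-162 nor the downstream chemoreceptor gene srd-17 had an entry in its window.

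Neither mes-3 nor mes-4 came near the IDR limit. The lowest IDR signal was 58.8, the mes-3 entry had 16.9 where the lowest signal of the pooled list was 16.3, and mes-4 had none to rank. Absence from a relaxed list says that no entry was called at the unknown depth of these libraries, not that the protein was never there. Whether sequence that cannot be mapped uniquely lies at these promoters was not tested.

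**Figure D3:**
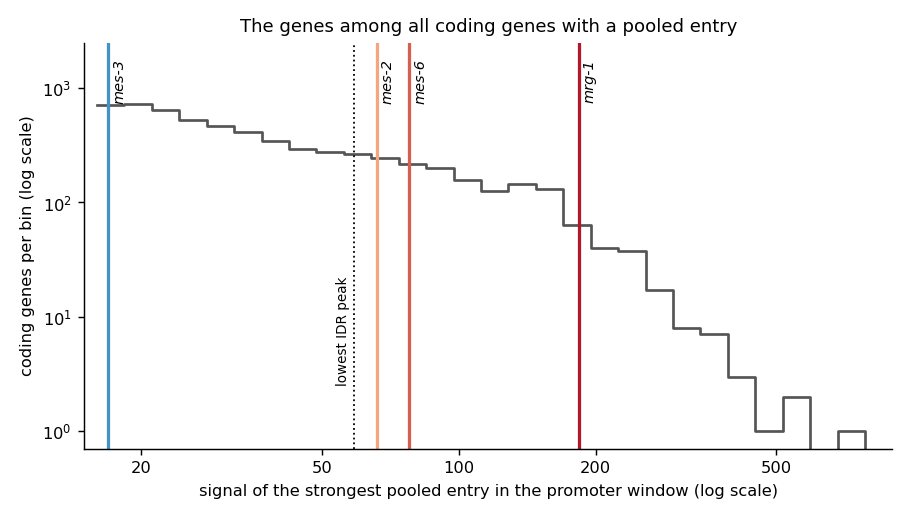
The line counts coding genes (log y axis) by the signal of the strongest pooled entry in their promoter window (log x axis) over the 6074 genes that have one, with the members as coloured lines and the lowest IDR signal as a dotted line. mes-3, at 16.9, lies at the left edge, mes-2 (66.1) and mes-6 (77.8) lie just right of the IDR limit, and mrg-1 (183.8) lies in the upper tail.

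Among the 6074 coding genes with any pooled entry in the window, mrg-1 stood above 97.6% by its strongest signal, mes-6 above 82.2%, mes-2 above 77.6% and mes-3 above 3.92%. The pooled list holds background as well as peaks. Among the 1568 genes with an IDR summit, mrg-1 stood above 90.8%, mes-6 above 31.2% (place 1078) and mes-2 above 13.1% (place 1362).

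By rank in the 2 replicates, the coding gene most like mrg-1 was rps-20, which encodes a protein of the small ribosomal subunit (ranks 113 and 119, a distance of 0.0499 percentile points over 4312 genes). The gene most like mes-6 was set-26, which encodes a SET and PHD domain protein (ranks 1706 and 852, distance 0.229), and the gene most like mes-2 was Y52E8A.2 (ranks 1598 and 1378, distance 0.137 over 4313 genes). All 3 of these genes had an IDR summit. The likeness rests on 2 values per gene.

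Other chromatin genes, of the same pathways and of others such as dosage compensation, were scored in the same way. Of 58 companion genes in 7 lists, 18 (31%) had an IDR summit in the window, beside 7.85% of coding genes, and 44 had a pooled entry (75.9%, beside 30.4%). The median rank of the 18 was 591, beside 709.5 for the strongest IDR summit of all 1568 genes. Like the members, these lists were drawn up with earlier results known, and the counts are descriptions.

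Around PRC2, 2 of 7 genes had an IDR summit. lin-53, whose product is the histone-binding RbAp46/48 protein that accompanies PRC2 in other animals, had a peak at chromosome I, 9619911 to 9620053 (signal 184.2, rank 115), 213 bp upstream and shared with nra-2. rba-1, which encodes a protein of the same kind, had no IDR summit and stood at rank 4320 in the pooled list. jmjd-1.2, a Jumonji demethylase gene, had one at chromosome IV, 4660418 to 4660602 (signal 225.3, rank 64), 427 bp upstream and shared with F29B9.11. The demethylase genes utx-1, jmjd-3.1, jmjd-3.2 and jmjd-3.3, which remove the PRC2 mark or belong to that family, had none. These 4 genes are on the X, where 1.1% of coding genes had an IDR summit.

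In the list drawn up around H3K36 methylation and the MRG-1 complexes, which also holds genes of other complexes, 5 of 10 had an IDR summit. They were rbbp-5, a core subunit gene of the H3K4 methyltransferase complexes (signal 157.5, rank 201, shared with tpp-2), the acetyltransferase gene mys-1 (123.2, rank 406), the corepressor scaffold gene sin-3 (89.2, rank 800), set-26 (79.1, rank 1001, shared with tsr-2) and the acetyltransferase gene cbp-1 (59.3, rank 1649). The gene met-1, which encodes the other main H3K36 methyltransferase of the worm, had none and stood at rank 3460 in the pooled list.

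Among the repressors that keep germline genes off in the soma, 5 of 12 had an IDR summit. They were lin-35 (signal 239.8, rank 53), lin-54 (190.4, rank 104), lin-9 (137.6, rank 309), efl-1 (78.1, rank 1030) and lin-36 (66.4, rank 1389). The lin-35, lin-54 and efl-1 summits were shared with vps-51, the ribosomal protein gene rpl-12 and fbxa-90. Of 8 genes of H3K9 methylation and heterochromatin, lin-61 (130.7, rank 355, shared with bub-1) and the methyltransferase gene set-25 (64.3, rank 1461) had one. Of 6 genes of germline chromatin and X control, the H3K4 methyltransferase gene set-2 (303, rank 29) and xnd-1 (61.7, rank 1562, shared with madf-11) had one.

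Of 10 genes of dosage compensation, which lowers the output of both X chromosomes in the soma of hermaphrodites, mix-1 alone had an IDR summit (66.7, rank 1379), shared with R06F6.12, and its product is also part of the mitotic condensin. That share of 10% was near the 7.85% of all coding genes, and 7 of the 10 had a pooled entry (70%, beside 30.4%). Of 5 genes related to PRC1, sor-3 had one (90.7, rank 776), the only one of 11 companions on the X that did, where 1.1% of coding genes on that chromosome had one.

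**Figure D4:**
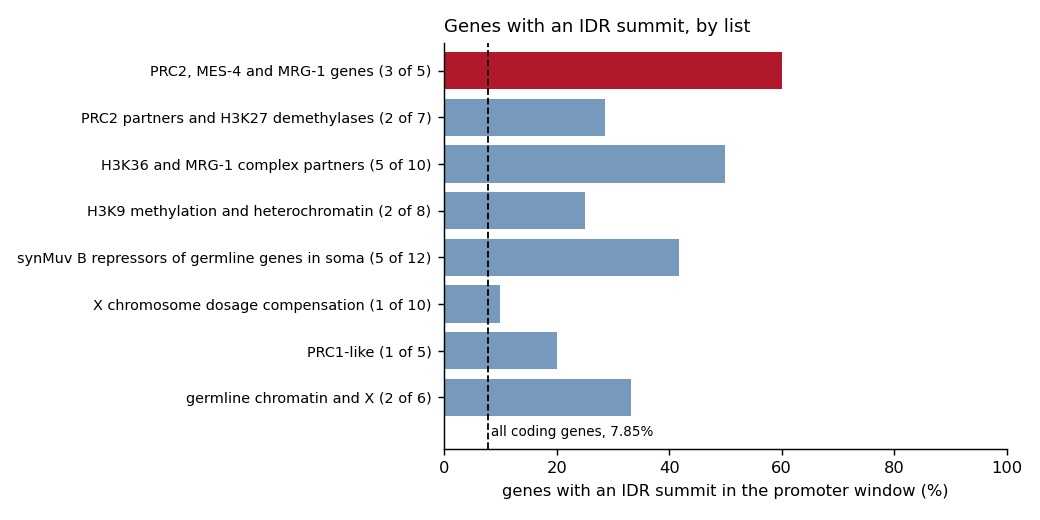
Bars give the percentage of genes in each list with an IDR summit in the promoter window (counts in brackets), and the dashed line marks the 7.85% of all coding genes. The red bar is the 5 genes described above, and the shortest bar is that of dosage compensation, 1 of 10.

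The authors made the lists with a control file, but its reads were not examined here. Whether open or highly transcribed DNA in general is enriched at these promoters was therefore not tested. No expression was measured in these animals, and effects of the transgene or of niDf199 cannot be told apart from the binding itself, because both replicates carry them.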

How the data were processed

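ChIP-seq was done on whole larvae in 2 replicates, per the labels. Per the deposited text listings, the authors made 1 list per replicate and 1 from both replicates pooled, each with the same control file, and an IDR list from them. The sources name no aligner and no caller, and the IDR cut-off is not given in the sources used. Column 7 of each deposited list is the authors' signal, column 9 their −log10 q-value and column 10 the summit offset. All 1667 IDR peaks are the 1667 pooled peaks of highest signal, and all have the highest −log10 q-value, so signal ranked them.

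Only ce11 lists were joined to genes, those of Ensembl release 115 for WBcel235, the same assembly. The 5' end is that of the whole gene, coordinates count from 1, and the RefSeq genome gave sequence. Lists were read with Python 3.11.15, numpy 2.4.6 and pandas 2.3.3, and plotted with matplotlib 3.10.9. Window scoring was tested on simulated data with 200 planted summits over 19973 genes. It recovered 102 of 102 inside and scored 0 of 98 outside. No test between samples was possible with 1 group. The members, companion lists and naming rule (members, genes sharing or flanking their summits, companions with an IDR summit and the most alike gene) were chosen with earlier results of these data known. The neighbours sdz-26, kbp-3, cec-7, C09G4.4, cks-1, nurf-1, paf-1 and app-1, and the companions without an IDR summit (rba-1, utx-1, jmjd-3.1, jmjd-3.2, jmjd-3.3 and met-1), were named after their values were seen.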

Additional observations from a re-analysis of the deposited data

How the results depend on the processing

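The count of members with an IDR summit was 3 with a window from 500 bp or 2000 bp upstream, with the 5' end of any transcript and with interval overlap in place of the summit, and each time the genes were mrg-1, mes-6 and mes-2. In that order, the share of coding genes was 6.46%, 9.7%, 8.24% and 8.4%, beside 7.85% in the main setting. The companions numbered 14, 20, 18 and 18, beside 18 in the main setting. With the 834 IDR peaks of highest signal it was 1, mrg-1, with 4.54% of coding genes and 11 companions. With the pooled relaxed list it was 4, with mes-3 added, 30.4% of coding genes and 44 companions. With the highest peaks of a single replicate it was 2 to 3, with 7.35% to 7.88% of coding genes and 15 to 16 companions, and replicate 1 alone lost mes-6. The strongest pooled rank of mrg-1, mes-6, mes-2 and mes-3 was the same under all 4 windows tried, and mes-4 gave no rank under any of them. No paired analysis was possible because the design has 1 group and no test. Unknown depth limits every statement that no entry was called.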
